A study of Mus musculus with 36 samples.

Results

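The 9 genes described here carry out or control antigen presentation by major histocompatibility complex (MHC) class I in the mouse, and were taken by symbol from the 12762 genes measured. They are the class I heavy chains H2-K1 and H2-D1, their shared light chain B2m, the peptide transporter genes Tap1 and Tap2, the loading factor Tapbp (tapasin), the peptide-trimming enzyme Erap1, and the regulators Nlrc5 and Irf1. All 9 had a value in every library. B3 is a mouse cell line of the pre-B stage. In the Ikaros cells a retroviral MSCV vector encodes HA-tagged Ikaros joined to the ERt2 hormone-binding domain of the estrogen receptor, followed by an IRES and GFP, so that 4-hydroxy-tamoxifen (4-OHT) moves the fusion protein into the nucleus. The control cells carry the same vector with ERt2 and GFP but no Ikaros. Both were bulk populations sorted on GFP, with endogenous Ikaros present, and the Ikaros level comes from the viral promoter. Messenger RNA was sequenced at 0, 2, 6, 12, 18 and 24 h, with 3 libraries from separate culture batches in each of the 12 groups and 36 libraries in all. Every library, 0 h included, is listed with 0.5 uM 4-OHT, while the methods give the 0 h cells as untreated and collected separately. A comparison with 0 h therefore also compares collection occasions.

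MHC class I molecules display peptides from proteins made inside the cell to CD8 T cells, and nearly all nucleated cells make them. Proteasomes cut proteins into peptides, the Tap1 and Tap2 transporter carries the peptides into the endoplasmic reticulum, Erap1 trims them, and tapasin helps to load them onto a heavy chain paired with beta-2-microglobulin, the product of B2m. Transcription of the class I genes is raised by interferon, in part through the transcription factor Irf1, and by Nlrc5, a coactivator that joins the RFX, CREB/ATF and NF-Y factors on a shared promoter module of class I genes.

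Values are log2 expression as deposited, adjusted for gene length and GC content, on a scale with an arbitrary zero. A difference of 1 on this scale is a 2-fold change in RNA. In these bulk samples fewer cells of a type and less RNA per cell cannot be told apart. Library medians lay between 11.70 and 11.73, and no counts were used, so the depth reached by each library is unknown, the methods giving a target only. The precision rests on n = 3 per group. Ikzf1, the Ikaros gene, stood at 13.95 to 14.85 in the 18 control libraries and at 19.63 to 20.93 in the 18 Ikaros libraries, so the label of the line held in each library. All 11 pre-B cell markers had a value, Cd79a at the 99.5th percentile of gene means and Rag2 at the 33.9th. The mean level of these markers was 13.72 to 14.28 in control and 13.30 to 14.98 in Ikaros libraries. Of 5 T cell markers none had a value, and of 5 myeloid markers Lyz2 and Itgam did, at the 7.60th and 5.81st percentiles. The mean of these 2 genes was 4.83 to 6.79 in control and 6.14 to 7.91 in Ikaros libraries, and their part in the class I results was not tested. The mean of the erythroid markers Klf1 and Epor was 6.63 to 7.70 and 5.64 to 7.78, and that of the dendritic cell marker Flt3 was 8.14 to 10.72 and 8.08 to 10.42, in control and Ikaros libraries.

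By 24 h most of the class I genes were higher in Ikaros than in control cells. In that comparison 8 of the 9 were higher and Erap1 was lower (limma, adjusted p under 0.05), where 62.9% of all genes were called, 31.0% higher and 31.9% lower. The median difference of the 9 genes was 0.82, against -0.01 for all genes. At 0 h the median was -0.19 and 2 genes, Irf1 and Nlrc5, were called, both lower in Ikaros cells, while 8.33% of all genes were called, 4.61% higher and 3.72% lower. At 2 h 2 were called, Irf1 higher and Nlrc5 lower (19.1% of all genes, 9.18% higher and 9.88% lower). The heavy chains, Tap1 and Irf1 made up the 4 called at 6 h, all higher (37.3% of all genes, 18.1% higher and 19.2% lower). At 12 h 5 were higher and Tap2 was lower (45.8% of all genes in either direction). At 18 h 6 were higher, namely H2-D1, B2m, Tap1, Tapbp, Nlrc5 and Irf1 (58.2% in either direction). The medians at these times were -0.10, 0.29, 0.31 and 0.56, against -0.02 to -0.00 for all genes.

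**Figure D1:**
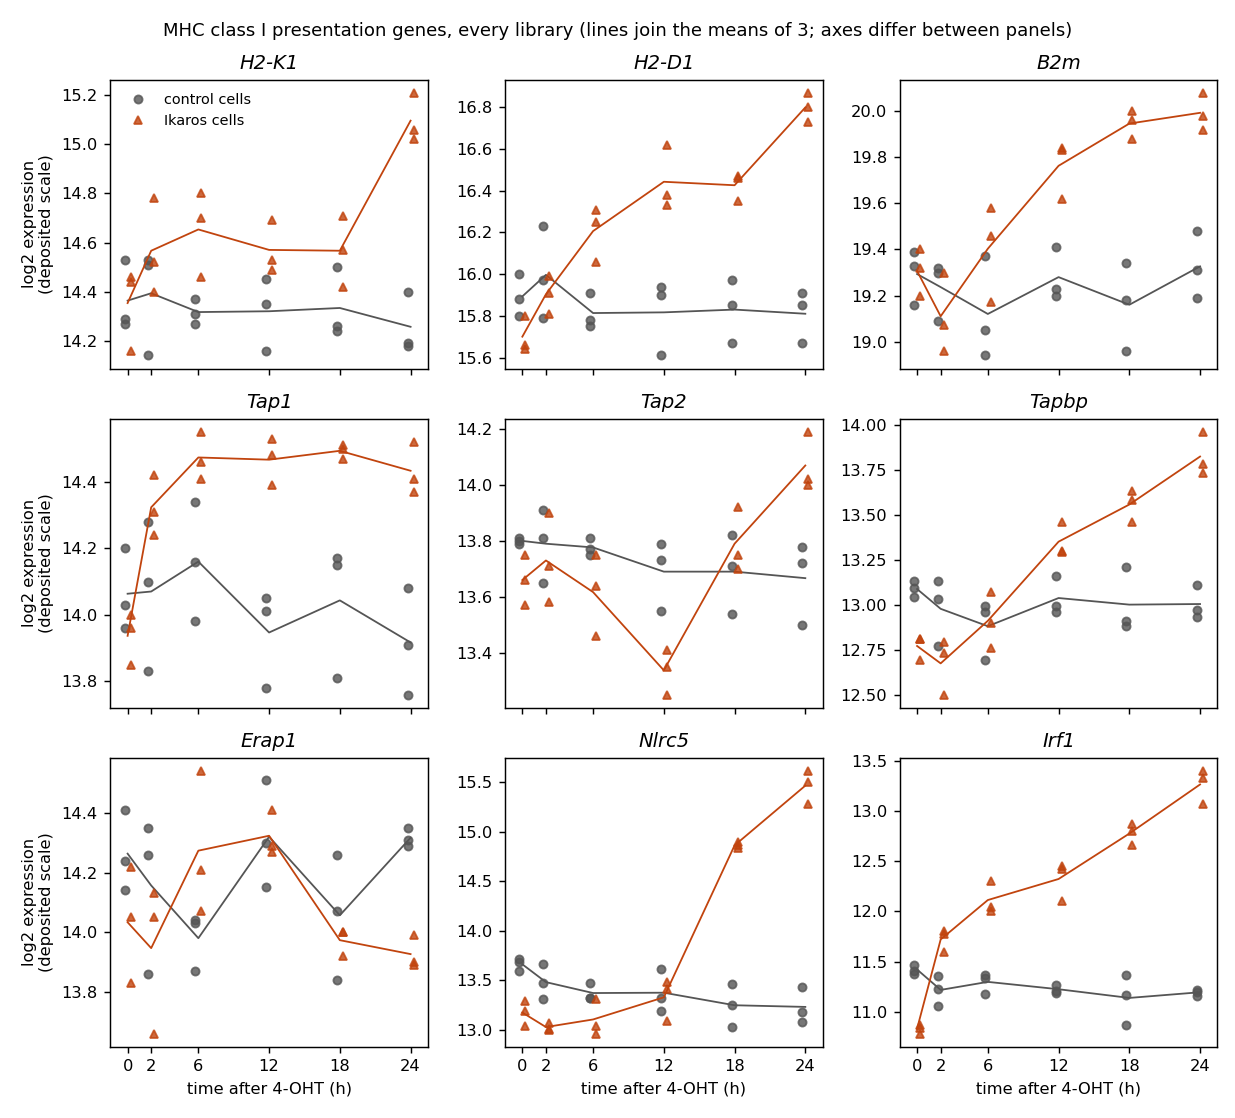
Log2 expression (vertical axis, deposited scale) of the 9 class I presentation genes against time after 4-OHT in hours, with a point for each library and lines through the means of the 3 libraries of a group. Among control cells (circles) 0 of the 9 genes are called against 0 h, while the Ikaros cells (triangles) lie above the controls for Irf1 from 2 h and for Nlrc5 from 18 h, where its 3 libraries are at 14.83 to 14.89 after 13.09 to 13.48 at 12 h.

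Each line was also compared with its own 0 h. By this comparison 0 of the 9 genes were called by limma in control cells at 2, 6, 12, 18 or 24 h, where 0.0470%, 5.10%, 0.0549%, 0.478% and 0.470% of all genes were called, shares that moved widely between alternatives. At an unadjusted p under 0.05 the numbers of genes were 0, 1, 1, 2 and 1. With the culture batch as a block 1 gene was called at 6 h. In Ikaros cells 2, 3, 6, 6 and 8 of the 9 genes were called against 0 h, beside 19.2%, 32.8%, 46.1%, 54.6% and 60.6% of all genes.

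Irf1 was the regulator that separated the lines at each time measured. Irf1 (ENSMUSG00000018899; GRCm38 chromosome 11, 53770014 to 53778374, a protein-coding gene on the forward strand) encodes a transcription factor that binds interferon response elements. At 0 h its level was 11.38, 11.41 and 11.47 in control and 10.84, 10.87 and 10.78 in Ikaros libraries (culture batches 1, 2 and 4). At 2 h it was 11.06, 11.36 and 11.23 in control and 11.77, 11.80 and 11.59 in Ikaros libraries (batches 1, 3 and 4, as at all later times). The Ikaros libraries lay below all controls at 0 h and above all of them at 2 h. At 6 h the Ikaros libraries reached 12.04, 12.00 and 12.30, at 12 h 12.45, 12.10 and 12.42, at 18 h 12.80, 12.66 and 12.87, and at 24 h 13.40, 13.07 and 13.33. The 18 control libraries stayed between 10.87 and 11.47 throughout. No Ikaros library from 2 h on overlapped the controls of its time. Irf1 shares 135 exonic bases with Gm17334 on the opposite strand.

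The difference between the lines for Irf1 was -0.59 at 0 h (SE 0.12, adjusted p 0.000921, limma) and 0.50 at 2 h (adjusted p 0.00248). After that it was 0.81 (6 h), 1.10 (12 h), 1.64 (18 h) and 2.07 (24 h), the last a 4.21-fold higher RNA level (adjusted p 1.81e-14). Within the culture batches the difference at 24 h was 2.20, 1.85 and 2.17. The change of the difference from 0 h to 2 h was 1.09 (SE 0.16, adjusted p 0.000121), and Irf1 was the 1 gene of the 9 called for that change, where 3.10% of all genes were called and 1.21% rose. The 0 h call was lost without replicate 2 of every group (-0.61, adjusted p 0.0512). The 2 h call was lost when only the 2 groups compared were fitted (0.50, adjusted p 0.0984), without replicate 1 (0.40, adjusted p 0.136) and without replicate 2 (0.53, adjusted p 0.0534), and the change to 2 h without replicate 1 (1.01, adjusted p 0.0623).

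Nlrc5 was lower in Ikaros cells at 0 and 2 h and higher at 18 and 24 h. Nlrc5 (ENSMUSG00000074151; GRCm38 chromosome 8, 94434356 to 94527272, a protein-coding gene on the forward strand) encodes the class I coactivator. In control libraries its level was 13.68, 13.59 and 13.71 at 0 h, and the 18 control libraries ranged from 13.03 to 13.71. The Ikaros libraries began at 13.04, 13.19 and 13.29 (0 h) and then held 13.07, 13.00 and 13.01 (2 h), 12.96, 13.04 and 13.31 (6 h) and 13.48, 13.41 and 13.09 (12 h). Up to 6 h the Ikaros libraries lay below the controls of their time, and at 12 h the groups overlapped. At 18 h the Ikaros values were 14.83, 14.89 and 14.86 against 13.46, 13.25 and 13.03 in control libraries. At 24 h they were 15.50, 15.61 and 15.28 against 13.43, 13.08 and 13.18. Nlrc5 shares 78 exonic bases with 9330175E14Rik on the opposite strand.

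In the fit, Nlrc5 was lower in Ikaros cells by -0.49 at 0 h (SE 0.13, adjusted p 0.0159, limma) and by -0.45 at 2 h (adjusted p 0.0152). The difference was -0.27 at 6 h and -0.04 at 12 h, neither called. It was 1.62 at 18 h (adjusted p 5.30e-11) and 2.23 at 24 h (adjusted p 5.57e-14), a 4.70-fold higher level. Within batches the 24 h difference was 2.07, 2.54 and 2.10. The 0 h call was lost in 5 of 14 alternatives and the 2 h call in 4 of 14. Single libraries sufficed: the 0 h call was lost without control replicate 1 (adjusted p 0.0520), control replicate 3 (0.0683) or Ikaros replicate 1 (0.10), and the 2 h call without control replicate 1 (0.102). Without Ikaros replicate 3 the 6 h difference was called (-0.37, adjusted p 0.0431).

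The step between neighbouring times was examined after the values had been seen. From 12 h to 18 h the Ikaros minus control difference of Nlrc5 rose by 1.66 (SE 0.19, adjusted p 3.05e-06, limma). Irf1 rose by 0.54 (adjusted p 0.0303) and Tap2 by 0.45 (adjusted p 0.0394) over the same step, which made 3 of the 9 genes called where 11.7% of all genes were, 5.54% upward. The Nlrc5 call held in each of the 20 alternatives run, while that of Irf1 was lost in 10 of 20 (adjusted p 0.0513 to 0.274) and that of Tap2 in 11 of 20 (0.0617 to 0.266). The steps from 2 h to 6 h, 6 h to 12 h and 18 h to 24 h gave 0 called genes of the 9 in limma, with 4, 0 and 5 at an unadjusted p under 0.05, beside 5.96%, 16.0% and 2.63% of all genes called.

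**Figure D2:**
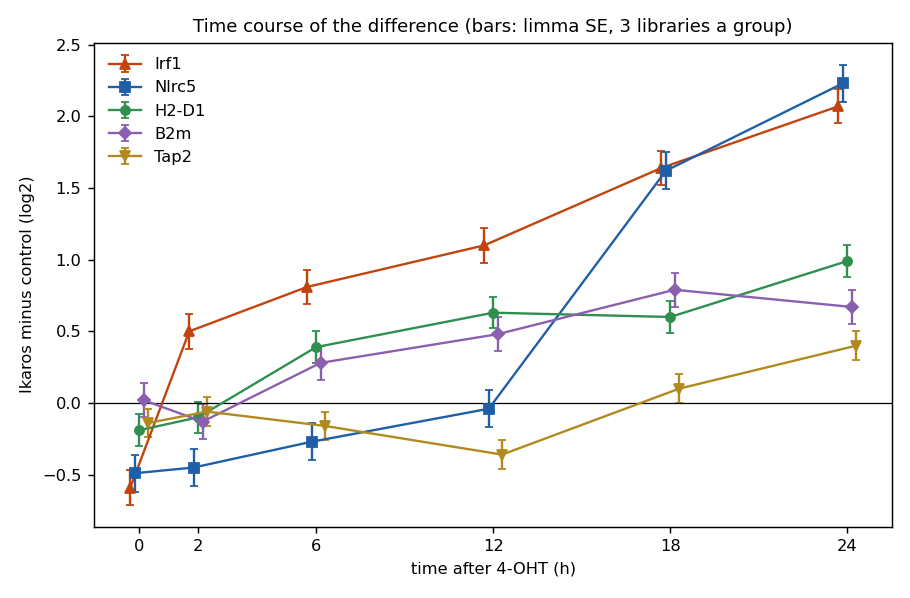
Ikaros minus control difference (log2, vertical axis) against time after 4-OHT in hours for Irf1, Nlrc5, H2-D1, B2m and Tap2, with bars for the standard error from limma (3 libraries a group). Irf1 passes from -0.59 at 0 h to 0.50 at 2 h, Nlrc5 from -0.04 at 12 h to 1.62 at 18 h, and Tap2 from -0.36 at 12 h to 0.40 at 24 h.

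Both classical heavy chains were higher in Ikaros cells at 24 h, by less than a 2-fold change. H2-K1 (ENSMUSG00000061232; GRCm38 chromosome 17, 33996017 to 34000347, a protein-coding gene on the reverse strand) and H2-D1 (ENSMUSG00000073411; chromosome 17, 35262730 to 35267499, a protein-coding gene on the forward strand) encode the K and D molecules of the class I complex. At 24 h H2-K1 was at 14.40, 14.19 and 14.18 in control and 15.02, 15.21 and 15.06 in Ikaros libraries. The difference was 0.84, a 1.79-fold higher level (SE 0.13, adjusted p 1.83e-06, limma), with no overlap of the groups and 0.62, 1.02 and 0.87 within batches. At 0 h the groups overlapped, with 14.53, 14.29 and 14.27 in control and 14.46, 14.44 and 14.16 in Ikaros libraries. From 6 h to 18 h the H2-K1 difference stayed between 0.23 and 0.33, and its call at 6 h (adjusted p 0.0371) was lost in 9 of 14 alternatives (adjusted p 0.0568 to 0.333), among them without any 1 of the 3 control libraries and without Ikaros replicate 2 (0.155) or 3 (0.0910).

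H2-D1 was called higher in Ikaros cells at 6, 12, 18 and 24 h. At 0 h its level was 16.00, 15.88 and 15.80 in control and 15.80, 15.66 and 15.64 in Ikaros libraries, a difference that did not pass (-0.19, adjusted p 0.372). At 6 h the control libraries were at 15.91, 15.75 and 15.78 and the Ikaros libraries at 16.06, 16.31 and 16.25, a difference of 0.39 (adjusted p 0.00672). That call was lost when only the groups compared were fitted (adjusted p 0.0957), without replicate 2 of every group (0.31, adjusted p 0.128) and without replicate 3 (0.36, adjusted p 0.0719). At 24 h the values were 15.91, 15.67 and 15.85 in control and 16.73, 16.87 and 16.80 in Ikaros libraries, a 1.99-fold difference (0.99, SE 0.11, adjusted p 1.57e-08). In each batch from 6 h on the Ikaros library was the higher of its pair. The 2 chains share sequence with each other and with further class I genes: of the 75-base stretches of their longest transcripts, 1.55% for H2-K1 and 7.1% for H2-D1 occur in the transcript of another gene, so a single read from these stretches matches more than 1 gene. How far the paired read placed such fragments was not tested.

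B2m, the light chain that pairs with class I heavy chains, was among the most abundant transcripts, at the 99.8th percentile of gene means. B2m (ENSMUSG00000060802; GRCm38 chromosome 2, 122147686 to 122153083, a protein-coding gene on the forward strand) stood at 19.39, 19.16 and 19.33 in control and 19.32, 19.20 and 19.40 in Ikaros libraries at 0 h. At 18 h it was at 19.34, 18.96 and 19.18 in control and 19.96, 19.88 and 20.00 in Ikaros libraries. At 24 h the values were 19.31, 19.19 and 19.48 against 19.98, 20.08 and 19.92. The groups overlapped up to 6 h and were apart from 12 h on. The difference was 0.48 at 12 h (SE 0.12, adjusted p 0.00203, limma), 0.79 at 18 h (adjusted p 4.09e-06) and 0.67 at 24 h (adjusted p 3.56e-05), the last a 1.59-fold higher level. Without replicate 2 of every group the 12 h call was lost (0.41, adjusted p 0.0603). The 6 h difference of 0.28 (adjusted p 0.0757) was called without control replicate 1 (0.40, adjusted p 0.0182) or Ikaros replicate 3 (0.40, adjusted p 0.0202).

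Promoter sequences are shown for H2-K1, H2-D1 and B2m, which hold a pair of boxes of the known class I control module, and for Irf1, which holds a gamma-activated site and not that pair. RefSeq windows (GRCm38.p6) were at hand for 7 of the 9 genes, all but Tap2 and Nlrc5, and the 250 bases before the RefSeq start were searched on both strands. For H2-D1, Tapbp and Erap1 this start lies inside the annotated gene span given here, so their windows do too, and the bases before the span were not searched. H2-K1 and Irf1 each had 2 windows, and the first of each is printed. The second H2-K1 window (34000334 to 34000583) lies partly inside the gene span, and the second Irf1 window (53770223 to 53770472) lies fully inside it. The motifs were chosen with the sequences in view. They were GGGNNTTCC (a kappa-B site), AANNGAAA (the core of an interferon-stimulated response element), TTCNNNGAA (a gamma-activated site) and a pair made of TGACG (the core of the X2 box, a CREB/ATF site) and ATTGG (the reverse of the CCAAT box of NF-Y) with 20 bases between them. Sequences are written 5′ to 3′ on the strand of the gene, and capitals mark these matches.

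H2-K1 (chr17:34000348-34000597, reverse strand, 250 bases before the start): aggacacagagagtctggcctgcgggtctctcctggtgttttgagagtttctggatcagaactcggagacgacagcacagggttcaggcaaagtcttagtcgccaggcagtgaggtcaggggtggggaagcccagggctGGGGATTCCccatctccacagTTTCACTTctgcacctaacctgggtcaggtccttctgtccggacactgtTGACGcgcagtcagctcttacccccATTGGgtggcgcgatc
H2-D1 (chr17:35262923-35262952, forward strand, kappa-B and interferon sites): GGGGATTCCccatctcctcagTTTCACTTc
H2-D1 (chr17:35262993-35263022, forward strand, X2 and CCAAT pair): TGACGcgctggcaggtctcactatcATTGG
B2m (chr2:122147437-122147686, forward strand, 250 bases before the start): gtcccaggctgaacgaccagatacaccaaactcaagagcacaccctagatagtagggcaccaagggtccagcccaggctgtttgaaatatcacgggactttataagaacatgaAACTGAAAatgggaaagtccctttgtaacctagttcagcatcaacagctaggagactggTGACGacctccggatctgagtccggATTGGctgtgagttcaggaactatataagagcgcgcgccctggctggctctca
Irf1 (chr11:53769764-53770013, forward strand, 250 bases before the start): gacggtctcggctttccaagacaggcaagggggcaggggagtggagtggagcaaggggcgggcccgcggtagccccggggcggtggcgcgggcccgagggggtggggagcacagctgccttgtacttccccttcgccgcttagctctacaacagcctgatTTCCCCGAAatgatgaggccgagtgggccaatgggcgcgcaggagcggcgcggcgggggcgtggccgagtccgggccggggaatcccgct

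H2-K1, H2-D1 and B2m each held the X2 and CCAAT pair at the same spacing. Of the 32851 RefSeq promoter windows 0.0913% held it, from 26 genes, and the class I gene H2-M3 was among those. The pair and its spacing were chosen with the sequences in view, so its presence in H2-K1, H2-D1 and B2m is no test. In the 2 heavy chain promoters the kappa-B site was followed closely by the interferon element on the opposite strand, as the printed stretches show. B2m held the interferon core and no match to GGGNNTTCC, and Irf1 held the gamma-activated site and no match to GGGNNTTCC. Other forms of the kappa-B site were not searched, so a missing match does not mean that a kappa-B site is absent. Tap1 held TGACG and no ATTGG at that spacing, and the windows of Tapbp and Erap1 held none of the motifs that are in capitals. The second H2-K1 window held the same capital motifs as the first, and the second Irf1 window held none of them. Over all windows the share with a match was 4.98% for GGGNNTTCC, 21.3% for AANNGAAA, 7.02% for TTCNNNGAA and 17.8% for TGACG. The letters TGGGAA, a core that Ikaros is known to bind, were present in the windows of B2m, Tap1 and Tapbp and in 21.6% of all windows. A match is a description of the letters, and binding was not measured here.

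Of the 2 subunits of the peptide transporter, Tap1 was called higher from 6 h on, and Tap2 was called lower at 12 h and higher at 24 h. Tap1 (ENSMUSG00000037321; GRCm38 chromosome 17, 34187553 to 34197225, a protein-coding gene on the forward strand) stood at 14.20, 14.03 and 13.96 in control and 14.00, 13.96 and 13.85 in Ikaros libraries at 0 h. Its Ikaros libraries were at 14.41, 14.55 and 14.46 by 6 h and at 14.41, 14.52 and 14.37 at 24 h, when the controls were at 14.08, 13.76 and 13.91. The Tap1 difference was 0.31 at 6 h (SE 0.11, adjusted p 0.0333, limma), 0.52 (12 h), 0.45 (18 h) and 0.52 (24 h), the last a 1.43-fold higher level (adjusted p 0.000321). The call at 6 h was lost in 7 of 14 alternatives (adjusted p 0.0587 to 0.310), among them without control replicate 2 (0.22) or 3 (0.31) and without Ikaros replicate 2 (0.27) or 3 (0.32). Tap1 shares 212 exonic bases with Psmb9 on the opposite strand, and Psmb9 was itself higher at 24 h by 0.70. The libraries were strand-specific, but whether the counting used the strand is not given in the sources used here.

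Tap2 differed in both directions over the time course. Tap2 (ENSMUSG00000024339; GRCm38 chromosome 17, 34203527 to 34216321, a protein-coding gene on the forward strand) was at 13.79, 13.55 and 13.73 in control and at 13.41, 13.25 and 13.35 in Ikaros libraries at 12 h. At 24 h it was at 13.78, 13.50 and 13.72 in control and 14.00, 14.19 and 14.02 in Ikaros libraries. The groups were apart at both times, in opposite directions. The difference was -0.36 at 12 h (SE 0.10, adjusted p 0.00521, limma) and 0.40 at 24 h (adjusted p 0.00118), a 1.32-fold higher level. The 12 h call was lost when only the groups compared were fitted (adjusted p 0.0690) and without replicate 1 of every group (-0.34, adjusted p 0.0633), and the 24 h call was lost without replicate 2 (0.26, adjusted p 0.118). Tap2 shares 165 exonic bases with the antisense gene Gm20496 and 533 with Gm15821.

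Tapbp was called higher in Ikaros cells from 12 h on. Tapbp (ENSMUSG00000024308; GRCm38 chromosome 17, 33915899 to 33929292, a protein-coding gene on the forward strand) encodes tapasin. It was at 13.13, 13.04 and 13.09 in control and 12.81, 12.69 and 12.81 in Ikaros libraries at 0 h, groups that did not overlap. The difference there was -0.32 (SE 0.11, adjusted p 0.0852, limma) and -0.30 at 2 h (adjusted p 0.0605), and with the culture batch as a block both passed (adjusted p 0.0188 and 0.0148). The 2 h difference also passed without control replicate 3 (-0.40, adjusted p 0.0168). At 24 h the values were 13.11, 12.97 and 12.93 in control and 13.96, 13.78 and 13.73 in Ikaros libraries, a 1.76-fold higher level (0.82, adjusted p 4.29e-07). The differences in between were 0.04 at 6 h, 0.31 at 12 h (adjusted p 0.0244) and 0.56 at 18 h (adjusted p 0.000118). The 12 h call was lost in 6 of 14 alternatives (adjusted p 0.0727 to 0.194), among them without control replicate 2 (0.29) or 3 (0.27) and without Ikaros replicate 3 (0.26). Tapbp shares 149 exonic bases with Zbtb22 on the same strand, whose difference at 24 h was 0.78, and 904 with Gm19412 on the opposite strand.

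Erap1 was the gene of the 9 that was lower at 24 h. Erap1 (ENSMUSG00000021583; GRCm38 chromosome 13, 74639568 to 74693201, a protein-coding gene on the forward strand) encodes the aminopeptidase that trims peptides in the endoplasmic reticulum. At 24 h it was at 14.31, 14.29 and 14.35 in control and 13.90, 13.89 and 13.99 in Ikaros libraries, a difference of -0.39 (SE 0.14, adjusted p 0.0165, limma) with no overlap. That is 0.763 of the control level. The call was lost without replicate 1 of every group (-0.38, adjusted p 0.0825) and without replicate 2 (-0.39, adjusted p 0.149). At the other times no Erap1 difference was called, apart from 6 h without Ikaros replicate 3 (0.39, adjusted p 0.0476) or without replicate 3 of every group (0.34, adjusted p 0.0299). Over all times its values ran from 13.84 to 14.51 in control and 13.66 to 14.54 in Ikaros libraries. Erap1 shares 834 exonic bases with Cast on the opposite strand, which was higher in Ikaros cells at 24 h by 1.46.

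**Figure D3:**
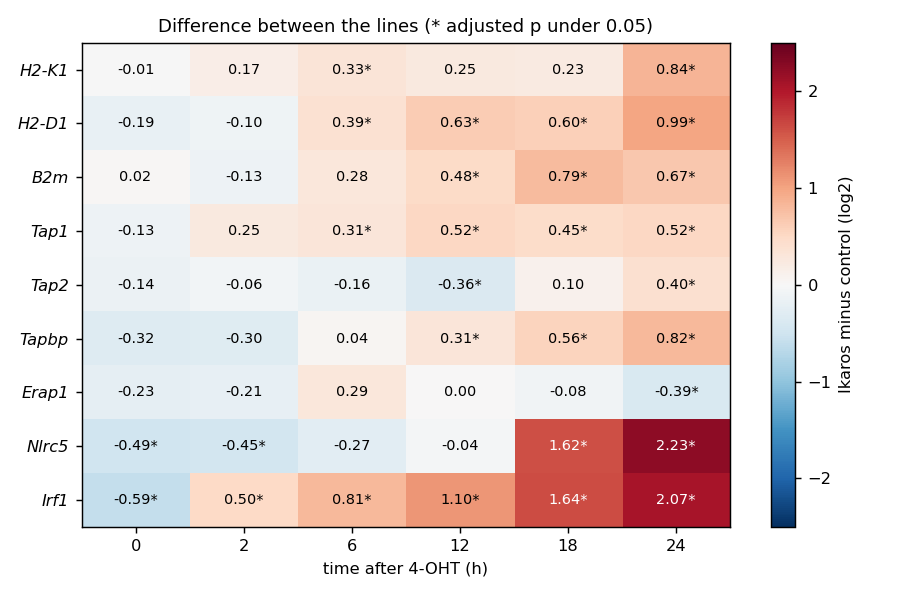
Ikaros minus control difference (log2, colour and printed value) of each of the 9 genes (rows) at each time after 4-OHT in hours (columns), with an asterisk where the adjusted p from limma was under 0.05. At 24 h 8 cells are positive, from 0.40 for Tap2 to 2.23 for Nlrc5, and Erap1 is at -0.39.

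Because the lines already differed at 0 h for Irf1 and Nlrc5, the change of the Ikaros minus control difference from 0 h was tested for every gene. By 24 h 8 of the 9 genes had a more positive difference than at 0 h, all but Erap1, beside 48.4% of all genes called in either direction and 24.2% upward. The change was 2.73 for Nlrc5 (SE 0.19, adjusted p 4.50e-12, limma), 2.66 for Irf1 (adjusted p 7.32e-13), 1.18 for H2-D1, 1.13 for Tapbp, 0.85 for H2-K1, 0.65 for B2m, 0.64 for Tap1 and 0.54 for Tap2. Without replicate 2 of every group the 24 h calls of B2m (0.55, adjusted p 0.0726) and Tap2 (0.41, adjusted p 0.115) were lost. At 6 h 2 genes were called, Irf1 (1.40) and H2-D1 (0.59), beside 15.9% of all genes, 7.72% upward. The H2-D1 call was lost without replicate 2 of every group (0.50, adjusted p 0.187) and without replicate 3 (0.57, adjusted p 0.0871). With the culture batch as a block 5 were called at 6 h, with Tap1 (adjusted p 0.0308), Tapbp (0.0467) and Erap1 (0.0317) added. At 12 h 5 were called (29.7% of all genes, 15.4% upward) and at 18 h 6 (43.0% in either direction). The B2m change to 12 h (0.47, adjusted p 0.0427) was lost in 12 of 20 alternatives (adjusted p 0.0615 to 0.273), 8 of them without a single library. Without replicate 2 the Tapbp change to 12 h (0.62, adjusted p 0.134) and the Tap1 change to 18 h (0.48, adjusted p 0.0573) were also lost. Without the 0 h libraries the comparison rests on the treated cultures alone. From 2 h to 24 h the difference rose for 7 of the 9 genes, all but Tap1 (0.26, adjusted p 0.189) and Erap1 (-0.18), beside 47.3% of all genes called in either direction and 23.3% upward. The Tap2 call was lost in 3 of 20 alternatives (adjusted p 0.0571 to 0.144). A moderated F test of any of the 5 changes called 8 of the 9 genes and 59.8% of all genes, with Erap1 at an adjusted p of 0.0566.

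Across the 12 group means, which share cultures and times, H2-D1 ran closest to Irf1 among the pairs of members (Pearson r 0.966). Tapbp and Nlrc5 gave r 0.904, B2m and Tapbp 0.922, and Nlrc5 and Irf1 0.784. Erap1 had a negative r with each of the other 8 genes, from -0.126 to -0.597. These are descriptions over n = 12 means. Among 6366 genes at or above the median level, those most like B2m were Aff3 (r 0.985), Rere (0.983) and Pik3r4 (0.983). Those most like Nlrc5 were Nnt (0.981), Flcn (0.981) and Tfrc (0.980), and those most like Irf1 were Srgn, Snx8 and Foxo1 (each 0.985).

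The rest of the class I pathway was read from 6 lists, of which 56 genes had a value. At 24 h 42 of the 56 were called in Ikaros against control cells, 29 higher and 13 lower, beside 62.9% of all genes (31.0% higher and 31.9% lower), and the median difference was 0.51. At 0, 2, 6, 12 and 18 h the numbers called were 6, 13, 19, 26 and 35 of the 56, beside 8.33%, 19.1%, 37.3%, 45.8% and 58.2% of all genes. The counts at 0 to 18 h lie near the shares of all genes. At 24 h the 29 of 56 called higher lie above the 31.0% of all genes, and the 13 called lower lie below the 31.9%. Of the 29, 12 were in the heavy chain list and 10 in the interferon signalling list. The lists were chosen with earlier results of these data known, so their counts are not independent evidence. The lists are described by their counts, and no test compared them with each other or with other genes.

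Among the other class I and class I-like heavy chains, 16 of the 26 listed had a value, and 12 were higher and 1 was lower at 24 h, with a median of 1.51, beside 31.0% higher and 31.9% lower of all genes. H2-T24 stood at 7.91, 7.77 and 6.14 in control and 11.85, 11.61 and 11.73 in Ikaros libraries, a difference of 4.46 (SE 0.36, adjusted p 4.16e-11, limma). H2-T23, which encodes Qa-1, was at 11.41, 11.60 and 11.70 in control and 14.38, 14.18 and 14.33 in Ikaros libraries, a difference of 2.73 (adjusted p 1.36e-13). Hfe, a class I-like protein of iron uptake that presents no peptide, was lower by -2.82 (adjusted p 1.04e-09), with 8.91, 8.23 and 8.86 in control and 5.60, 6.44 and 5.50 in Ikaros libraries. The H2-T24 controls (SD 0.98) and the Hfe values lay far below the library medians of 11.70 to 11.73. The sizes of the H2-T24 and Hfe differences are therefore less certain. Many of the listed genes are near-identical neighbours in the H2 complex. The authors allowed only a unique best placement per fragment, so reads of such genes may be missing or misplaced, which was not tested.

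Of 8 factors of the class I promoter module, 4 were higher and 2 lower at 24 h, with a median of 0.14, beside 62.9% of all genes called in either direction. Rfx5, the DNA-binding subunit of RFX, was at 9.99, 9.99 and 9.54 in control and 12.41, 12.22 and 12.25 in Ikaros libraries, a difference of 2.45 (SE 0.20, adjusted p 3.36e-11, limma). Rfxank, the ankyrin-repeat subunit, was higher by 1.42 (adjusted p 7.42e-09), and the difference of Rfxap, the remaining subunit, was -0.00 (adjusted p 0.999). Nfya, a subunit of NF-Y, was lower by -0.56 (adjusted p 0.000433). At 12 h the Rfx5 difference was 0.61 and at 18 h it was 1.83, beside -0.04 and 1.62 for Nlrc5 at the same times.

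**Figure D4:**
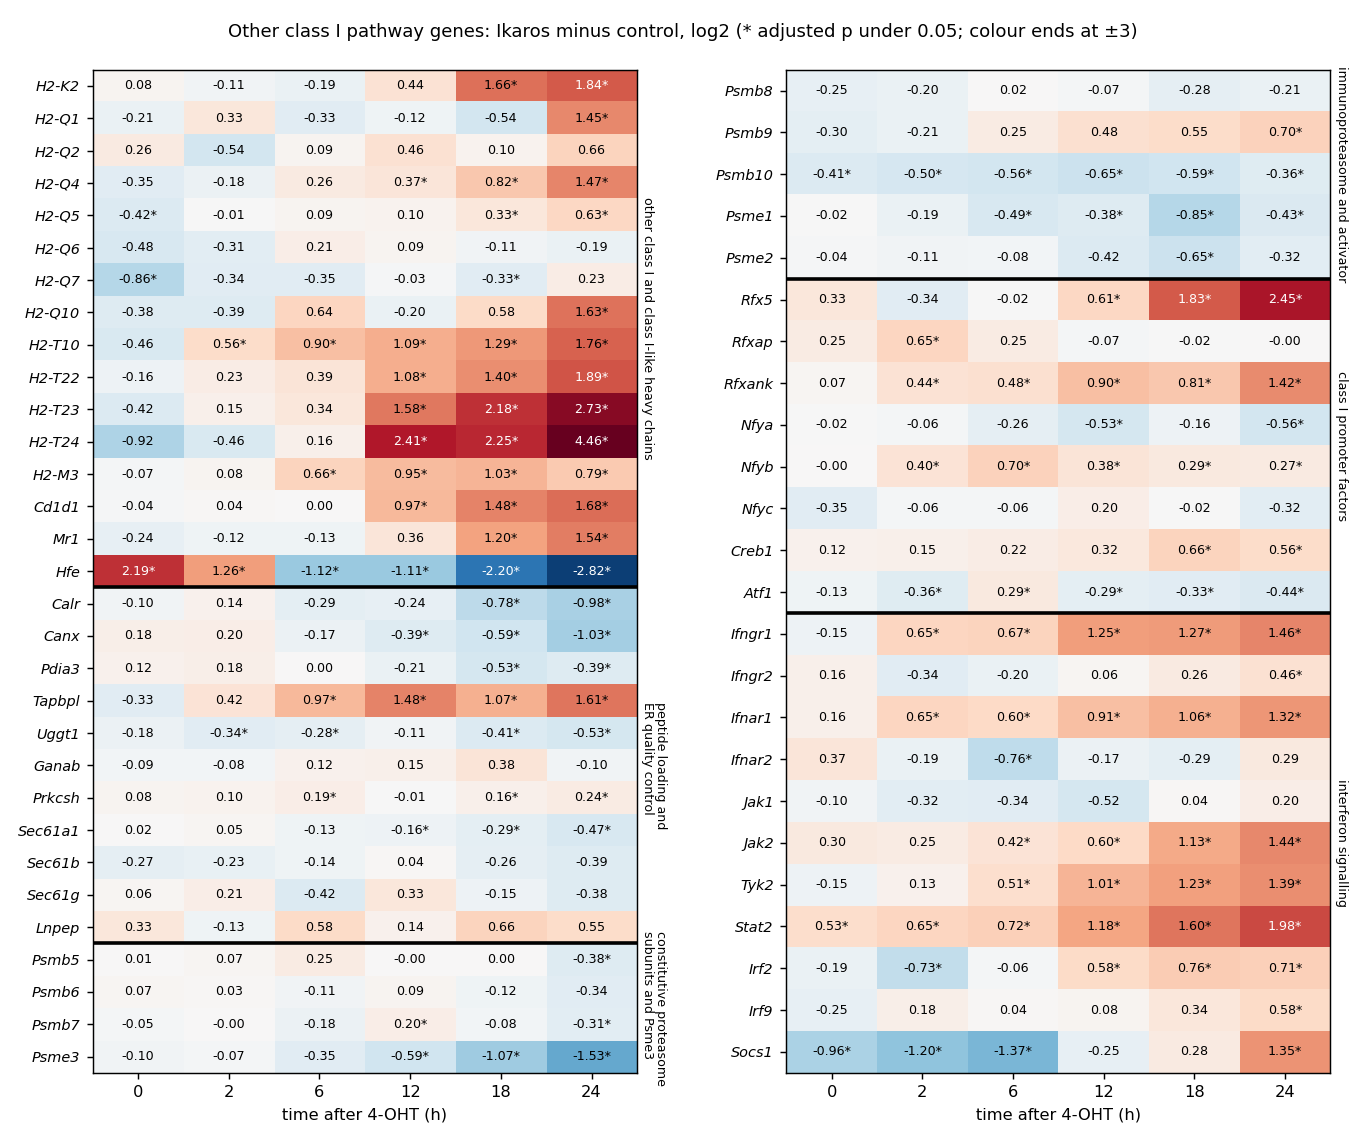
Ikaros minus control difference (log2, colour and printed value) of other class I pathway genes (rows, in 6 lists named at the side) at each time after 4-OHT in hours (columns), with an asterisk where the adjusted p from limma was under 0.05. The 4 H2-T genes reach 1.76 to 4.46 at 24 h, while Calr, Canx and Psme3 reach -0.98, -1.03 and -1.53.

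In the interferon signalling list, 10 of 12 genes were higher and 0 lower at 24 h (limma), with a median of 1.20, beside 31.0% higher and 31.9% lower of all genes. The remaining 2, Ifnar2 and Jak1, were at 0.29 and 0.20. Stat2, a transcription factor that type I interferon activates and that binds Irf9, was at 12.28, 12.04 and 12.07 in control and 14.09, 14.06 and 14.17 in Ikaros libraries, a difference of 1.98 (SE 0.15, adjusted p 7.54e-12). Ifngr1, the ligand-binding chain of the interferon gamma receptor, was higher by 1.46 (adjusted p 4.18e-12) and the kinase Jak2 by 1.44 (adjusted p 2.92e-08). Stat2 was already higher at 0 h, by 0.53. Socs1, an inhibitor of this signalling, was lower at 0, 2 and 6 h and higher by 1.35 at 24 h.

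Of 11 loading and endoplasmic reticulum quality control genes, 2 were higher and 5 lower at 24 h, with a median of -0.39. That is close to the 62.9% called among all genes, of which 31.0% were higher and 31.9% lower. Tapbpl, a tapasin-like editor of class I peptides, was at 10.79, 10.76 and 11.06 in control and 12.56, 12.45 and 12.43 in Ikaros libraries, a difference of 1.61 (SE 0.17, adjusted p 5.21e-09, limma). The lectin chaperones Canx and Calr, which fold new heavy chains and many other glycoproteins, were lower by -1.03 (adjusted p 2.49e-12) and -0.98 (adjusted p 1.01e-07). Of the 5 immunoproteasome and activator genes, Psmb9 was higher by 0.70 (adjusted p 0.0179), Psme1 was lower by -0.43 and Psmb10 by -0.36, and Psmb8 (-0.21) and Psme2 (-0.32) were not called. The Psmb9 call was lost without control replicate 2 (0.55, adjusted p 0.0958), without Ikaros replicate 2 (0.60, adjusted p 0.0727) and without replicate 2 of every group (0.45, adjusted p 0.223), that of Psmb10 in 2 of 14 alternatives, among them without control replicate 3 (-0.27, adjusted p 0.0694), and that of Psme1 without replicate 1 of every group (-0.38, adjusted p 0.0631). Of the standard subunits that these replace, Psmb5 was lower by -0.38 (adjusted p 0.0152) and Psmb7 by -0.31 (adjusted p 0.00124), and Psmb6 (-0.34) was not called. The Psmb5 call was lost in 3 of 14 alternatives, among them without control replicate 3 (-0.33, adjusted p 0.0649), and the Psmb7 call without replicate 2 of every group (-0.30, adjusted p 0.0556). Psme3, which encodes another activator of the proteasome and stands in the same list, was lower by -1.53 (adjusted p 5.70e-09).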

How the data were processed

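Messenger RNA of 36 libraries was analysed from a table of log2 values deposited by the authors. The authors trimmed the reads and aligned them to mm10 (TopHat2), allowing only a unique best placement per fragment. Fragments were counted per gene (HTSeq), and GC content and length bias were corrected by cqn and library preparation by non-parametric ComBat. A constant makes the lowest value 1. The log base is taken from cqn. The libraries were paired-end and strand-specific (dUTP). The strand setting of the counting is not given in the sources used here, so whether reads of genes overlapping on opposite strands were separated is not known, and ComBat removed variation that the standard errors cannot show. The depth reached is unknown, and the methods give a target only. Groups came from the labels. limma 3.58.1 (R 4.3.3) was fitted to all 12762 genes with 1 mean for each of the 12 groups, and p-values are two-sided with Benjamini-Hochberg adjustment over all genes, called under 0.05. Simulated on the 24 h comparison over all genes, 62 of 100 changes of size 1 and 94 of 100 of size 2 were called, with 7 of 12562 unchanged genes. The simulation changed only these genes and drew independent noise without batch effects, while 62.9% of all genes were called in the data at 24 h. Its shares therefore do not give the sensitivity in these data.

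Control and Ikaros libraries of a culture batch share its number in the labels, so the numbers pair them. Deviations of the 18 pairs from their group means correlated at -0.0620 to 0.507 (median 0.127), 12 of them above 0.1. Named genes were the 9 members, Ikzf1, up to 3 genes of each list with the largest called 24 h difference and no overlap of the groups, and the 3 genes most correlated with B2m, Nlrc5 and Irf1. Other genes, such as Socs1, H2-M3, Rfxap, Psmb8, Psme2, Cast and Zbtb22, were named after their values were seen. Some list genes enter the counts, medians and marker means but are not reported here singly. The members and lists were chosen with earlier results of these data known, and the steps between neighbouring times were added after seeing the data. Alternatives were a batch block, quantile normalization, removal of genes under the 25th percentile of mean level, a trended robust eBayes, fits of the compared groups alone, and fits without each replicate or library. Positions are from GENCODE release M21, in which 98.7% of the identifiers matched, and promoters from RefSeq (GRCm38.p6). Where a fit leaves 1 or 2 libraries in a group, they are taken to vary like the other groups.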

Additional observations from a re-analysis of the deposited data

Results flagged for a closer look

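These values are listed because the difference between the lines at 1 time was tested against that at another and passed (limma, adjusted p under 0.05). Of all genes 3.10%, 15.9%, 29.7%, 43.0% and 48.4% passed in either direction for the changes from 0 h to 2, 6, 12, 18 and 24 h. From 2 h to 24 h 47.3% passed. Some of the listed calls were lost under alternatives, as given above, such as that of B2m from 0 h to 12 h in 12 of 20. Each listed value is the change of the Ikaros minus control difference on the log2 scale, and all were increases. For Irf1 it was 1.09 from 0 h to 2 h, 1.40 to 6 h, 1.69 to 12 h, 2.23 to 18 h and 2.66 to 24 h, and 1.57 from 2 h to 24 h. For Nlrc5 it was 2.11 from 0 h to 18 h, 2.73 to 24 h and 2.69 from 2 h to 24 h. For H2-D1 it was 0.59 from 0 h to 6 h, 0.82 to 12 h, 0.79 to 18 h and 1.18 to 24 h, and 1.09 from 2 h to 24 h. For Tapbp it was 0.63 from 0 h to 12 h, 0.87 to 18 h and 1.13 to 24 h, and 1.12 from 2 h to 24 h. For B2m it was 0.47 from 0 h to 12 h, 0.77 to 18 h and 0.65 to 24 h, and 0.79 from 2 h to 24 h. For Tap1 it was 0.65 from 0 h to 12 h, 0.58 to 18 h and 0.64 to 24 h. H2-K1 gave 0.85 from 0 h to 24 h and 0.66 from 2 h to 24 h, and Tap2 gave 0.54 and 0.46. Changes from 0 h also compare the separate collection of the 0 h cultures, and those from 2 h to 24 h do not. With 3 libraries a group, no library was examined for standing apart within its group.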

How the results depend on the processing

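Of 61 called differences and changes of the 9 genes, 22 lost the call under at least 1 alternative and 0 changed direction. With a replicate block for culture batch, which the shared batch numbers allow, 0 of the 61 were lost and 5 were added: 5 genes in place of 2 were called for the change from 0 h to 6 h, and Tapbp at 0 h and 2 h. In control cells at 6 h 1 gene in place of 0 was called, and the pairing changed no other of these calls. The block takes batches 1 and 4 at 0 h as the same as those of later times, though the methods give the 0 h cells as collected separately. Of the 5 added calls only that of Tapbp at 2 h compares no 0 h library. When only the compared groups were fitted, 0 in place of 2 genes were called between the lines at 2 h, 1 in place of 4 at 6 h, and 1 in place of 2 in Ikaros cells at 2 h against 0 h. Of the 56 other pathway genes 4 in place of 13 were called at 2 h and 12 in place of 19 at 6 h. Fewer libraries enter these fits. Without each replicate or library in turn, members called between the lines numbered 0 to 2 at 0 h, 0 to 3 at 2 h and 1 to 5 at 6 h, 1 to 2 in Ikaros cells at 2 h, 0 to 1, 1 to 3 and 3 to 6 for the changes from 0 h to 2, 6 and 12 h, and 5 to 9 in the F test, and other pathway genes 2 to 8 at 0 h and 3 to 14 at 2 h. Calls between the lines over all genes moved from 1063 to as few as 318 at 0 h and from 2432 to 804 at 2 h (without replicate 2) and from 4759 to 2150 at 6 h (only the compared groups), those for the changes from 0 h from 396 to 54 at 2 h (without replicate 1), from 2024 to 584 at 6 h and from 3795 to 1548 at 12 h (without replicate 2), and those for the step from 12 h to 18 h from 1497 to 143 (without replicate 2). For the steps from 2 h to 6 h, 6 h to 12 h and 18 h to 24 h they moved from 761 to 41, from 2043 to 388 and from 336 to 0 (without replicate 1). Those in Ikaros cells against 0 h moved from 2444 to 645 or 3720 at 2 h (without replicate 2, batch block), from 4182 to 1904 at 6 h and from 5888 to 3598 at 12 h (without replicate 2), those for the change to 18 h from 5492 to 3077 and those of the F test from 7626 to 4064 (without replicate 2). In control cells against 0 h they fell from 6, 7, 61 and 60 to 0 at 2, 12, 18 and 24 h under at least 1 alternative, and ran from 0 (without replicate 1) to 2585 (batch block) around 651 at 6 h. The direction of some uncalled values near 0 turned in these fits, and the cause was not tested: between the lines, B2m (-0.05 to 0.07) and H2-K1 (-0.09 to 0.09) at 0 h, H2-D1 (-0.20 to 0.07) and Tap2 (-0.15 to 0.07) at 2 h, Tapbp (-0.06 to 0.11) at 6 h, Nlrc5 (-0.18 to 0.07) and Erap1 (-0.08 to 0.11) at 12 h and Erap1 (-0.19 to 0.02) at 18 h. For the change from 0 h to 2 h these were Erap1 (-0.13 to 0.16), H2-D1 (-0.02 to 0.26), Nlrc5 (-0.05 to 0.13), Tap2 (-0.04 to 0.25) and Tapbp (-0.09 to 0.10), and to 6 h Tap2 (-0.11 to 0.10).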
